A study of Mus musculus with 6 samples.

Results

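The costimulatory and coinhibitory receptors of T cells were examined as a group of 10 genes, Ctla4, Cd28, Icos, Pdcd1, Btla, Lag3, Tigit, Havcr2, Cd226 and Cd200. Members were selected by gene symbol in the annotation of the array's transcript clusters (probe groups that each report 1 locus), and each symbol matched 1 cluster, so 10 of the 65528 clusters entered. The cluster identifiers match the platform's annotation table but have the form used for another mouse array type than the one stated in the series' design, and every gene name here rests on that match. None of these clusters carried a second gene symbol, although the Cd200 cluster listed a second gene identifier with no entry in the RefSeq gene table. The arrays hold RNA of CD4+ CD25+ cells, the surface phenotype of regulatory T (Treg) cells, taken by magnetic separation from the spleen of mice that received no treatment. Keap1_KO cells (3 arrays, replicates B, C and D) came from mice labelled Keap1 -/-, in which Cre driven by the Vav promoter, active across blood-forming cells, deletes a floxed Keap1 gene, and WT cells (3 arrays, replicates A, D and F) came from mice labelled Keap1 +/+. All 6 samples are labelled male and C57BL/6. Their age is given in 1 label as 10-12 months and in another as 6-10 weeks. The series title, unlike the sample labels, writes the cells as CD4-negative. Vav-driven deletion is not limited to T cells, and the labels do not say whether WT mice carried Cre.

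As background, a T cell reads antigen through its receptor and adjusts the response through costimulatory receptors, which add signal, and coinhibitory receptors, which remove it. Several of these work as rival pairs on shared ligands: CD28 and CTLA-4 both bind CD80 and CD86, and CD226 and TIGIT both bind CD155. Treg cells carry many coinhibitory receptors, and CTLA-4 on Treg cells takes CD80 and CD86 away from antigen-presenting cells. Keap1 sends the transcription factor NRF2 to degradation, and NRF2 binds antioxidant response elements (AREs) in its target genes.

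Promoter windows of 300 bases from the RefSeq table of build GRCm38.p6 were searched for 6 of the 10 genes. Windows on the chromosome that holds Cd226 were left out of the search, so Cd226 could not be among the 6. The windows of 3 genes are shown because Tigit and Havcr2 did not overlap between the genotypes and because Tigit and Btla are the pair whose windows hold an ARE core. Each is written 5′ to 3′ on the gene's own strand, from 250 bases before to 50 bases after a RefSeq transcript start. Capitals mark the ARE core TGACNNNGC in Tigit (chr16:43664135-43664434, minus strand) and Btla (chr16:45224087-45224386, plus strand), and the AP-1 site TGANTCA in Havcr2 (chr11:46454681-46454980, plus strand).
Tigit: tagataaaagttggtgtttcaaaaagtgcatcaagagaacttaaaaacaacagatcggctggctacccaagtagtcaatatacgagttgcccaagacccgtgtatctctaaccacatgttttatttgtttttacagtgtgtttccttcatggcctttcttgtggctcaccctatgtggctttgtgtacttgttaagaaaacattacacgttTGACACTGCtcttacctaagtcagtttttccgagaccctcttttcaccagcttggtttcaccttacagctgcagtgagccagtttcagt
Btla: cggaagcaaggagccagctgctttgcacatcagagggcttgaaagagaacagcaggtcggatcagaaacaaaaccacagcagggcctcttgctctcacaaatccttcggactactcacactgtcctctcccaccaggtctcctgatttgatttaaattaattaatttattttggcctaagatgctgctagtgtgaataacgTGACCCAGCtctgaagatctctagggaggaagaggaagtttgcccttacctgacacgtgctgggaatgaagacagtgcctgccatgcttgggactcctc
Havcr2: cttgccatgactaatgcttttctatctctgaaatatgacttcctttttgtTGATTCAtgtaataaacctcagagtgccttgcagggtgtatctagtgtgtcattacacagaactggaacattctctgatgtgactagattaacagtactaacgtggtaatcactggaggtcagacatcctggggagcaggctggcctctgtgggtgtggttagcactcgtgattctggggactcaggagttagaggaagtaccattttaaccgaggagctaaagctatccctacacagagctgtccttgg
The ARE core begins at base -39 from the start in Tigit and at base -49 in Btla, and the AP-1 site at base -200 in Havcr2. With both strands searched, the ARE core occurred in 2 of the 6 windows and in 12.4% of all 32851 windows of that length outside the Cd226 chromosome. The AP-1 site occurred in 1 of 6 and in 7.81% of those windows. The forkhead site TGTTTAC occurred in none of the 6 and in 3.65% of all windows. The NFAT core GGAAAA occurred in 2 of 6, Ctla4 and Tigit, and in 23.4% of all. These are letter matches and do not show binding.

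Values are the deposited log2 expression values, always listed in the order A, D and F for WT and B, C and D for Keap1_KO, and differences are Keap1_KO minus WT. Whether each array had its own mouse is not stated in the labels, so the p-values reflect only the spread of these 6 arrays, which may be technical. Keap1 itself read 5.30, 5.41 and 5.77 in WT and 4.87, 4.89 and 4.70 in Keap1_KO. All of its Keap1_KO values lay below all WT values, but Keap1 was under the intensity filter, and probes outside the floxed part would not report the deletion. Txnrd1, the thioredoxin reductase gene and an NRF2 target, read 7.96, 8.34 and 7.68 in WT and 9.22, 9.27 and 9.45 in Keap1_KO, without overlap. Nqo1, a further NRF2 target that encodes a quinone reductase, read 4.68, 4.69 and 5.03 in WT, under each array's median, so that it passed the filter through the Keap1_KO arrays alone (8.50, 7.55 and 9.14). Il2ra, which encodes the CD25 chain, and Ikzf2, which encodes Helios, were bright in every sample (Il2ra 13.60 to 14.19, Ikzf2 14.92 to 15.57), as were Cd4 and the CD3 genes, whereas Foxp3 had no cluster of its own. Keap1_KO B stood nearer to the WT arrays than to its own group: across 16825 genes it correlated at 0.988 with WT A and at 0.961 and 0.958 with Keap1_KO C and D. WT D correlated at 0.983 with WT A and at 0.966 with WT F, against 0.970 and 0.975 with Keap1_KO C and D. For each of the 10 receptor genes the difference without Keap1_KO B is given beside that of all 6 arrays. Leaving out the Keap1_KO array most like WT can by itself enlarge differences.

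At the adjusted threshold of 0.05, none of the 10 receptor genes passed in limma with Benjamini-Hochberg adjustment over all 16825 genes, where 0 genes passed (0%). At an unadjusted p under 0.05, 2 of the 10 stood higher, Tigit and Havcr2, and none lower, against 8.38% of all genes higher and 1.92% lower (10.3% in either direction). In Tigit, Havcr2 and Lag3 every Keap1_KO array exceeded every WT array, which was so for 9.11% of all genes, although Lag3 overlapped when the scale was set over the genes tested. On the deposited scale, in none of the 10 did every Keap1_KO array lie below every WT array (4.96% of all genes, and 14.1% without overlap in either direction). With arrays centred over the genes tested this was so for Icos, Btla and Cd226. In that scaling 16.3% of all genes did not overlap in either direction, 5.54% were without overlap and higher, and the median of all genes was -0.11. The group means were higher in Keap1_KO for 7 of the 10 and for 56.5% of all genes, and lower for 3 of the 10 and 43.5% of all genes. On the deposited scale the median difference was 0.24 over the 10 against 0.06 over all genes tested. Over 4 other scalings, 5 to 8 of the 10 were higher and their median ran from 0.07 to 0.36, that of all genes from -0.11 to 0.17. All 10 passed the filter on dim values, on all 6 arrays. The array medians used by that filter lay between 5.16 and 5.43, and Lag3 (6.36 to 6.79) and Havcr2 (6.22 to 7.40) stood not far above them.

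**Figure D1:**
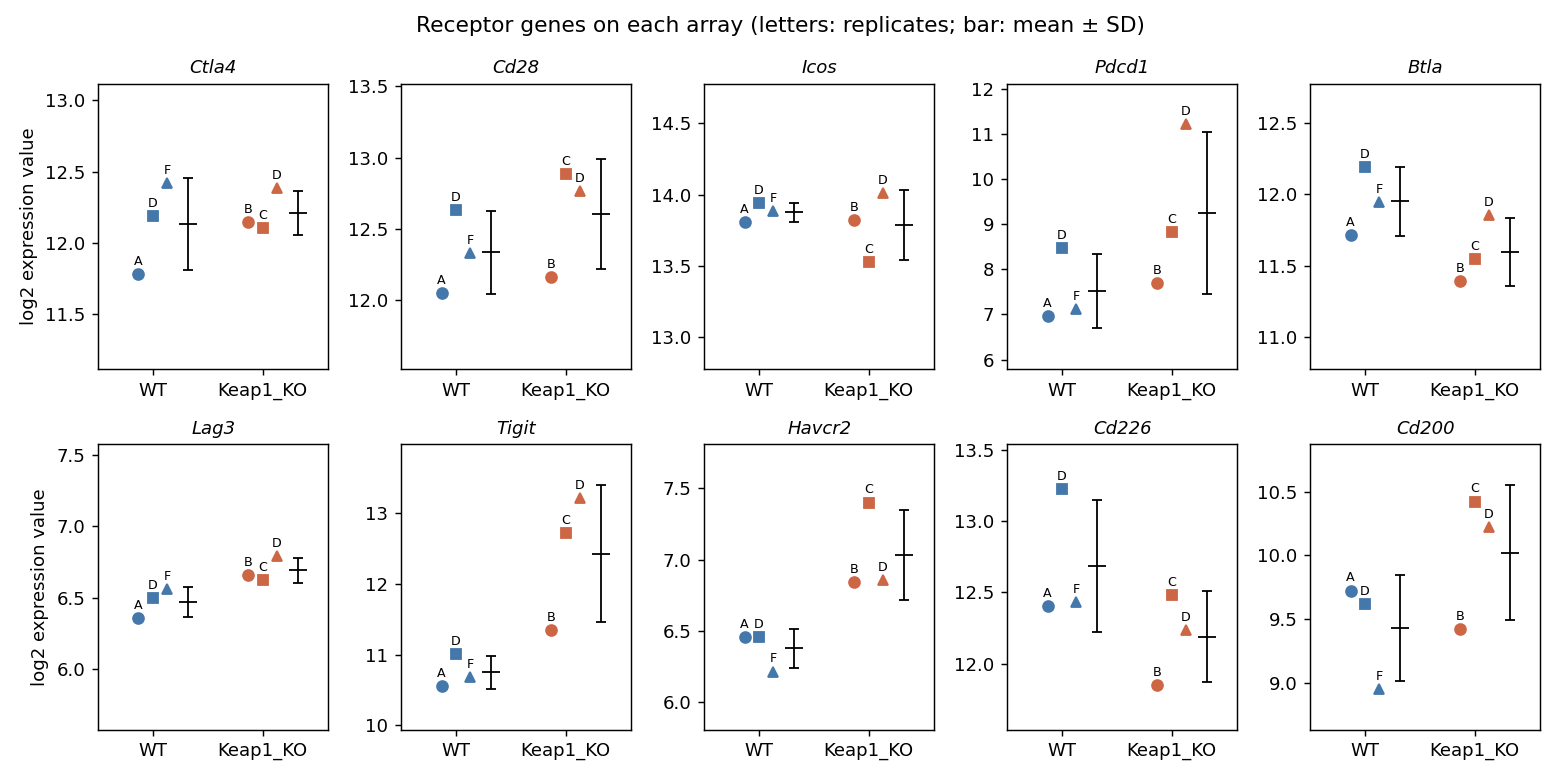
Log2 expression value (vertical axis, separate for each gene) of the 10 receptor genes on the 3 WT and 3 Keap1_KO arrays, with replicate letters and the mean ± SD beside the points. On the deposited scale Keap1_KO points lie above all WT points in Tigit, Havcr2 and Lag3 (Lag3 overlapped when the scale was set over the genes tested), and Pdcd1 has its highest value, 11.22, on Keap1_KO D.

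TIGIT, an inhibitory receptor that binds CD155, had the clearest difference of the group, whereas CD226, the activating receptor for the same ligand, averaged lower. Tigit read 10.56, 11.01 and 10.68 in WT and 11.34, 12.73 and 13.22 in Keap1_KO. Every Keap1_KO array was above every WT array, with Keap1_KO B nearest to WT. The difference was 1.68 (SE 0.48, 95% interval 0.53 to 2.83), or 3.21-fold, with a limma p of 0.0112 before adjustment and 0.476 after. By exact permutation the two-sided p was 0.1, and 3 arrays against 3 allow no smaller one. Without Keap1_KO B the difference was 2.22 and passed (limma adjusted p = 0.0346), in a fit where 3.48% of all genes did. Limma with array weights, which gave Keap1_KO B the lowest weight (0.35), also called it (2.15, adjusted p = 0.0408), in a fit that called 11.2% of all genes. That fit gave by far the highest weight to WT A (3.38), the array with the lowest Tigit value, against 0.76 for WT D and 0.51 for WT F. Over 16 alternatives the limma adjusted p of Tigit ranged from 0.0346 to 0.998, and the difference was 0.77 when the first principal component of the 6 arrays was a covariate. That component was computed from these same arrays. It can hold part of the genotype difference itself, which limits every value given with it as covariate, here and below.

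Cd226 read 12.41, 13.22 and 12.43 in WT and 11.85, 12.48 and 12.23 in Keap1_KO. On the deposited scale the groups overlapped, with Keap1_KO C above WT A and WT F. The difference was -0.50 (SE 0.29, 95% interval -1.20 to 0.21, limma adjusted p = 0.505, exact permutation p = 0.3). Without WT D the difference was -0.23, and without Keap1_KO B, the lowest array, it was -0.33. With the first principal component as covariate it was -0.96 (limma adjusted p = 0.998, 0.0111 before adjustment). With arrays centred over the genes tested it was -0.67 (limma adjusted p = 0.434), and every Keap1_KO array lay below every WT array. In that scaling 16.3% of all genes did not overlap in either direction, and 5.54% were without overlap and higher.

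Within each array, where a shift common to the whole array cancels, Tigit minus Cd226 was -1.85, -2.21 and -1.76 in WT. In Keap1_KO it was -0.51, 0.25 and 0.98. The groups did not overlap, and the Keap1_KO arrays were wider spread than the WT arrays. The group means differed by 2.18 (SE 0.45, 95% interval from the pooled spread 0.92 to 3.43), with an exact two-sided permutation p of 0.1 and 0.2 after Benjamini-Hochberg adjustment over the 2 pairs of receptors compared. With each array left out in turn the value stayed between 1.81 and 2.55. Without Keap1_KO B it was 2.55.

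**Figure D2:**
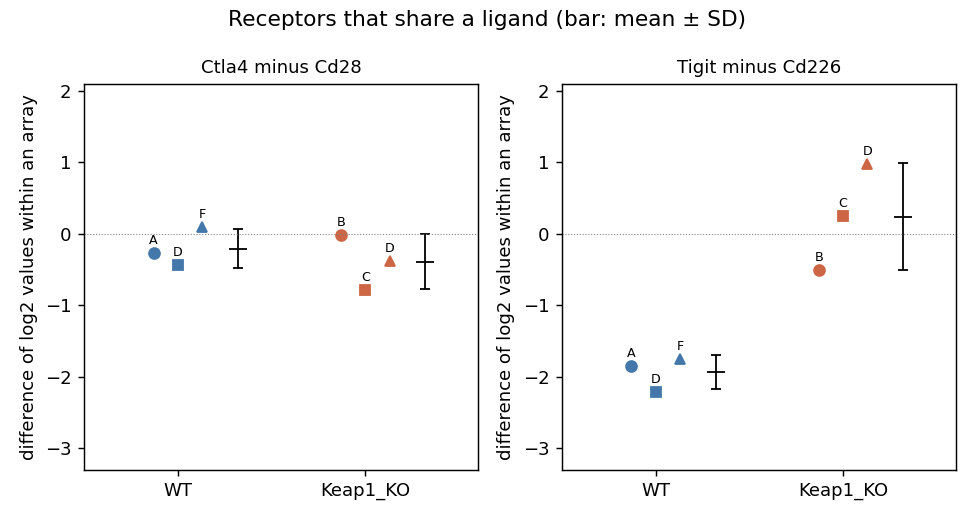
Difference between the log2 values of 2 receptor genes within each array (vertical axis) for the pairs Ctla4 and Cd28, which share CD80 and CD86, and Tigit and Cd226, which share CD155, with mean ± SD beside the points of each genotype. Tigit minus Cd226 lies between -2.21 and -1.76 in WT and between -0.51 and 0.98 in Keap1_KO, while the points of Ctla4 minus Cd28 overlap.

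Ctla4, Cd28 and Icos, the CD28 family members with well known roles in Treg cells, overlapped between the genotypes on the deposited scale. With arrays centred over the genes tested, every Keap1_KO value of Icos lay below every WT value. In that scaling 16.3% of all genes did not overlap in either direction, and 5.54% were without overlap and higher. Ctla4, the inhibitory receptor gene, read 11.78, 12.19 and 12.42 in WT and 12.15, 12.10 and 12.39 in Keap1_KO. All Keap1_KO values lay inside the WT range. The difference was 0.08 (SE 0.22, limma adjusted p = 0.873), and 0.11 without Keap1_KO B. Its 95% limma interval over all 6 arrays was -0.44 to 0.60, that is from 0.74 to 1.52 times the WT value. Cd28, the main costimulatory receptor gene, read 12.05, 12.63 and 12.33 in WT and 12.16, 12.88 and 12.77 in Keap1_KO. Its Keap1_KO C and D values were the highest of the 6 and Keap1_KO B lay inside the WT range. The difference was 0.27 (SE 0.26, 95% interval -0.36 to 0.90, limma adjusted p = 0.646). It was 0.49 without Keap1_KO B, 0.41 without WT D, 0.12 without WT A and 0.13 without Keap1_KO C. It turned to -0.14 with the first principal component as covariate and to -0.0012 with quantile normalization repeated over the genes tested. Icos, an inducible costimulator, read 13.81, 13.94 and 13.88 in WT and 13.82, 13.53 and 14.01 in Keap1_KO. Both the lowest and the highest Icos value belonged to Keap1_KO, on C and D. The difference was -0.09 (SE 0.18, 95% interval -0.53 to 0.35, limma adjusted p = 0.827), and it was 0.02 with arrays centred on their medians, 0.04 without Keap1_KO C and -0.11 without Keap1_KO B.

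Ctla4 minus Cd28 within each array was -0.27, -0.44 and 0.09 in WT and -0.015, -0.78 and -0.38 in Keap1_KO. The groups overlapped, and the means differed by -0.19 (SE 0.27, 95% interval -0.94 to 0.57, exact permutation p = 0.5, 0.5 after adjustment over the 2 pairs). Without Keap1_KO C the value was 0.0092 and without Keap1_KO B it was -0.37.

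The other inhibitory receptors differed in size and in evenness across the arrays. Pdcd1, which encodes PD-1, read 6.96, 8.46 and 7.13 in WT and 7.71, 8.84 and 11.22 in Keap1_KO. Keap1_KO D stood far above the other 5 arrays, and Keap1_KO B lay below WT D. The difference of 1.74 (3.33-fold) was the largest of the 10, but its SE was 0.91 and its 95% interval -0.46 to 3.93 (limma adjusted p = 0.494, exact permutation p = 0.2). It was 0.75 without Keap1_KO D, 2.51 without Keap1_KO B and 0.11 with the first principal component as covariate.

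Havcr2, which encodes TIM-3, read 6.46, 6.46 and 6.22 in WT and 6.84, 7.40 and 6.86 in Keap1_KO. The groups did not overlap and Keap1_KO C was highest. The difference was 0.66 (SE 0.21, 95% interval 0.15 to 1.17), or 1.58-fold, with a limma p of 0.0192 before adjustment and 0.476 after, and an exact permutation p of 0.1. It ranged from 0.47 to 0.77 over 16 alternatives, with limma adjusted p from 0.0598 to 0.998, and was 0.75 without Keap1_KO B. Lag3, which encodes a receptor for MHC class II, read 6.36, 6.49 and 6.56 in WT and 6.66, 6.63 and 6.79 in Keap1_KO. The groups did not overlap, although the lowest Keap1_KO array was only just above the highest WT array. The difference was 0.22 (SE 0.15, 95% interval -0.15 to 0.59, limma adjusted p = 0.543, exact permutation p = 0.1). It was 0.24 without Keap1_KO B and 0.05 with arrays centred over the genes tested, where the groups overlapped.

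Btla, whose product binds HVEM (gene Tnfrsf14), had a lower mean in Keap1_KO, in contrast to Pdcd1, Havcr2 and Lag3. It read 11.71, 12.19 and 11.94 in WT and 11.39, 11.55 and 11.86 in Keap1_KO. The groups overlapped through WT A and Keap1_KO D alone. The difference was -0.35 (SE 0.21, 95% interval -0.86 to 0.15, limma adjusted p = 0.505). It was -0.25 without Keap1_KO B, the lowest array. With quantile normalization repeated over the genes tested it was -0.61 and the groups did not overlap. In that scaling 15% of all genes did not overlap in either direction, and 7.74% were without overlap and higher. Cd200, whose product signals to the inhibitory receptor CD200R1 on other cells, read 9.72, 9.62 and 8.95 in WT and 9.42, 10.42 and 10.22 in Keap1_KO. Keap1_KO C and D were above all WT arrays and Keap1_KO B was below WT A and WT D. The difference was 0.59 (SE 0.34, 95% interval -0.22 to 1.41, limma adjusted p = 0.501), 0.89 without Keap1_KO B, 0.35 without WT F and -0.015 with the first principal component as covariate.

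**Figure D3:**
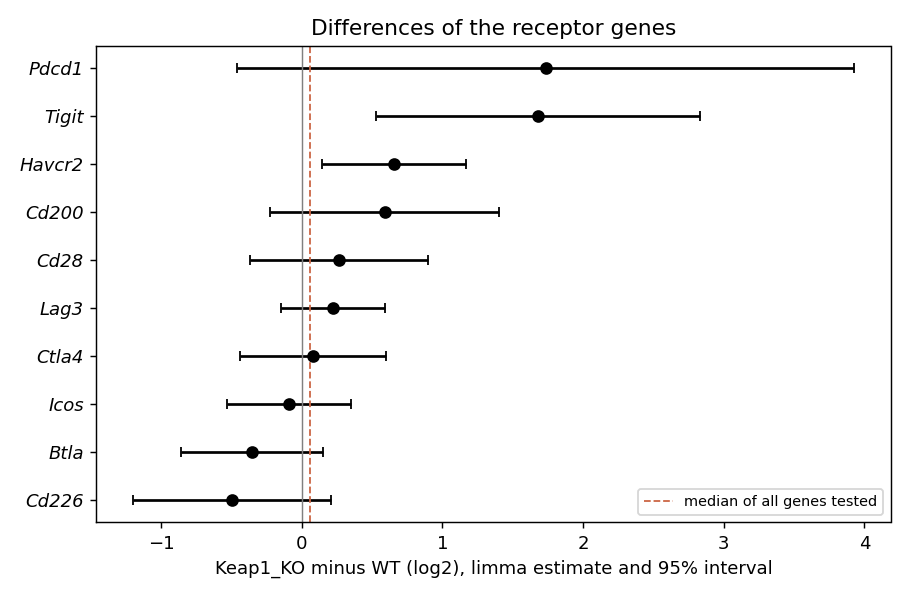
Keap1_KO minus WT (log2, horizontal axis) for each receptor gene, as the limma estimate with its 95% interval, ordered by size. The dashed line marks the median of all genes tested, 0.06, and the intervals of Tigit and Havcr2 lie above 0.

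The 3 Keap1_KO arrays differed from each other in how many receptor genes left the WT range. On Keap1_KO B, 3 genes (Lag3, Tigit and Havcr2) lay above the range of the WT arrays, 2 (Btla and Cd226) below it and 5 inside, and over all genes tested 18.9% lay above, 15.1% below and 65.9% inside. On Keap1_KO C, 6 genes lay above and 2 below, and on Keap1_KO D, 7 above and 1 below. Over all genes, 38.2% lay above and 26.9% below the WT range on Keap1_KO C, and 42.3% above and 27.2% below on Keap1_KO D. Without Keap1_KO B, 6 of the 10 had groups that did not overlap, all higher in Keap1_KO, in a comparison of 3 arrays with 2 where 31.6% of all genes did so in that direction.

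**Figure D4:**
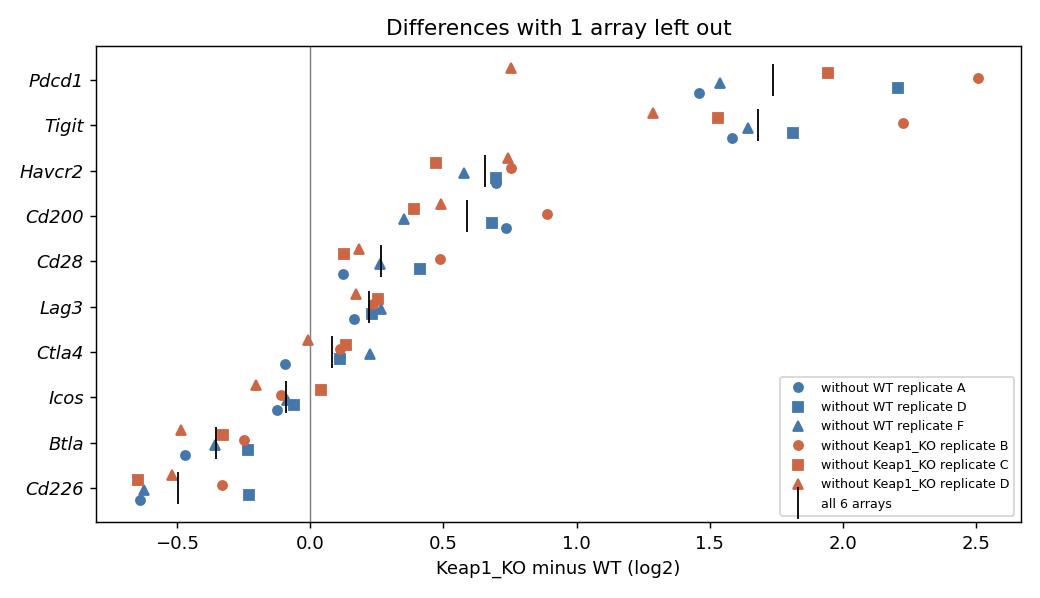
Keap1_KO minus WT (log2, horizontal axis) for each receptor gene with all 6 arrays (vertical bars) and with each array left out in turn (points). Tigit stays between 1.29 and 2.22, while Pdcd1 runs from 0.75 without Keap1_KO D to 2.51 without Keap1_KO B.

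Marker levels of other cells are given here beside the receptor values, and no association between them was computed. The mean log2 level of 10 of 10 neutrophil markers ranged from 8.20 to 9.50 in WT and from 8.36 to 12.59 in Keap1_KO, highest on Keap1_KO D. That of 5 of 6 NK cell markers ranged from 7.17 to 9.94 and from 8.51 to 10.45, that of 2 of 2 CD8 T cell markers from 6.34 to 7.79 and from 6.67 to 8.38, and that of 5 of 6 B cell markers from 6.33 to 8.50 and from 7.24 to 8.89. Macrophage and monocyte markers (6 of 6) ranged from 5.74 to 6.77 and from 6.11 to 7.29, plasma cell markers (4 of 4) from 8.01 to 8.78 and from 7.97 to 9.34, dendritic cell markers (5 of 5) from 5.53 to 6.05 and from 5.65 to 5.90, and 2 of 6 erythroid markers from 6.28 to 6.80 and from 6.19 to 6.52. CD4 T cell and Treg markers (6 of 7) ranged from 14.31 to 14.81 in WT and from 14.64 to 15.25 in Keap1_KO. Pdcd1, Tigit, Lag3 and Icos were highest on the array with the highest neutrophil, NK and B cell marker levels, Keap1_KO D. Of the other members, Cd28, Havcr2 and Cd200 were highest on Keap1_KO C, Btla and Cd226 on WT D and Ctla4 on WT F. Tigit, Pdcd1 and Btla, the last with a lower mean in Keap1_KO, also had the order of the neutrophil markers within Keap1_KO. That order was B lowest and D highest (8.36, 10.44 and 12.59 for the neutrophil markers). The remaining receptor genes did not have it. The CD8 T cell, plasma cell and macrophage lists had this order too. The NK cell, B cell, dendritic cell, erythroid and CD4 and Treg lists did not, with NK markers at 8.61, 8.51 and 10.45. The part of these cells in the differences of the receptor genes was not tested. On Keap1_KO B, 8 of the 9 marker lists, CD4 and Treg markers included, lay inside the WT range and the plasma cell list below it. Tigit, Havcr2 and Lag3 were above the WT range on that array, as were 18.9% of all genes tested. In bulk RNA, more cells carrying a receptor and more RNA per cell cannot be told apart.

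**Figure D5:**
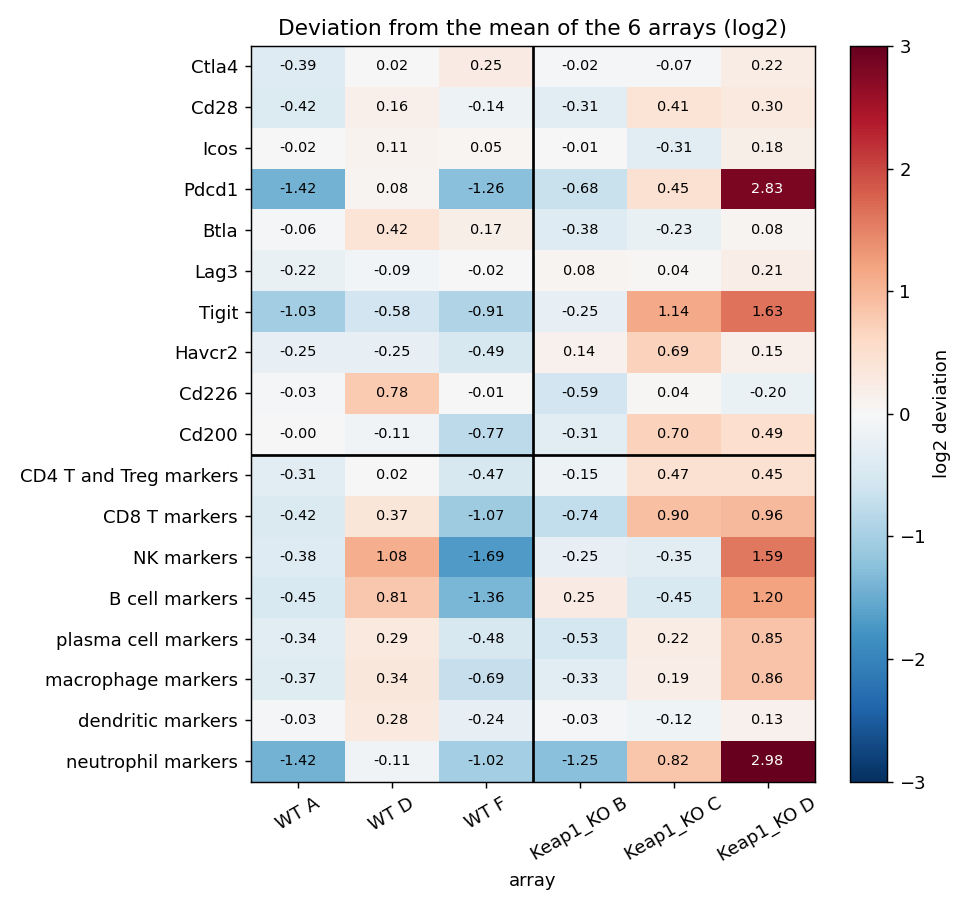
Deviation of each receptor gene (upper rows) and of the mean of each marker list (lower rows) from its own mean over the 6 arrays, in log2, with the value in each cell and arrays in columns. The erythroid list is not drawn. Pdcd1 (2.83) and the neutrophil markers (2.98) have their largest deviation on Keap1_KO D, and Tigit is below its mean on all WT arrays and on Keap1_KO B.

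Genes that work with these receptors were counted from fixed lists. Of 13 ligands and counter-receptors, 10 passed the intensity filter. On the deposited scale 9 of them had a higher mean in Keap1_KO (8 to 10 over 4 other scalings), against 56.5% of all genes. The median difference of the 10 was 0.36 against 0.06 over all genes. None passed the adjusted threshold. The 3 with the smallest limma p were Cd80, a ligand of CD28 and CTLA-4, with a difference of 0.88 (7.70 ± 0.20 and 8.58 ± 0.31), Cd200r1, the receptor of CD200, with 0.68 (8.80 ± 0.27 and 9.48 ± 0.26), and Lgals9, a galectin that binds TIM-3, with 1.28 (10.86 ± 0.59 and 12.14 ± 0.72). The arrays of the genotypes did not overlap for Cd80 and Cd200r1 and overlapped for Lgals9. These 3 were picked by p, which favours groups without overlap. Of the 10 tested, 4 had every Keap1_KO array above every WT array, against 9.11% of all genes. Pvr, which encodes CD155, the ligand of TIGIT and CD226, differed by -0.03, and the PD-1 ligand genes Cd274 and Pdcd1lg2 by 0.37 and 0.23. CD80 is also carried by B cells and macrophages, whose marker levels are given above, and their part in the Cd80 value was not tested.

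Of 15 other costimulatory or coinhibitory receptors outside the TNF receptor superfamily, 14 were tested. On the deposited scale all 14 had a higher mean in Keap1_KO (median 0.52), against 56.5% of all genes. Over 4 other scalings 12 to 14 of them did, and none passed the adjusted threshold. With arrays centred over the genes tested, the median of all genes moved from 0.06 to -0.11, and with arrays centred over all clusters it moved to 0.17. The 3 with the smallest limma p were the SLAM family receptor gene Slamf6, the adhesion receptor gene Cd2, and Cd6. They differed by 0.56 (12.04 ± 0.06 and 12.60 ± 0.23), 0.83 (13.39 ± 0.15 and 14.21 ± 0.47) and 0.85 (9.70 ± 0.09 and 10.55 ± 0.57). None of these overlapped between genotypes, which picking by p favours. Of the 14 tested, 6 had every Keap1_KO array above every WT array, against 9.11% of all genes. Cd96, a further CD155 receptor gene, differed by 0.57 and its arrays overlapped.

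Signalling, trafficking and mRNA control genes went both ways. Of 20 listed, 16 were tested, 8 with a higher and 8 with a lower mean (median -0.12), or 5 higher and 11 lower when the scale was set over the genes tested, and none passed the adjusted threshold. The 3 with the smallest limma p were Grap2, the gene of an adaptor that links CD28 and the T cell receptor to downstream signalling, at -0.56 (11.93 ± 0.06 and 11.37 ± 0.29), Ptpn6, the gene of the phosphatase SHP-1, at 1.07 (8.73 ± 0.53 and 9.80 ± 0.70), and Cblb, the gene of a ubiquitin ligase that restrains T cells lacking CD28 signal, at -0.56 (13.04 ± 0.20 and 12.48 ± 0.36). Rc3h1 and Rc3h2, which encode the Roquin proteins that shorten the life of Icos mRNA, differed by -0.57 and -0.60, and their arrays overlapped.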

How the data were processed

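The authors deposited log2 expression values of 6 arrays, 1 for each transcript cluster on each. RMA, Transcriptome Analysis Console and Affymetrix Expression Console are named per the submitters' processing notes; their roles, versions and the genome build are not given in the sources used here. Values reach 19.93, above the limit of a 16-bit scanner, so a rescaling that no source states came between, and folds are on the deposited scale. Clusters with 1 symbol were named through the annotation table, updated through Entrez identifiers (824 names replaced). Genes entered the test if at least 3 arrays read at or above their own median, each through its brightest such cluster (16825 genes). Keap1_KO and WT were compared by limma 3.58.1 in R 4.3.3 (lmFit, eBayes, two-sided, Benjamini-Hochberg over all genes), tested first on simulated data, and by exact permutation. For arrays, their number limits the precision. The 10 genes and the lists were chosen with earlier results of these data known. Named from the lists of ligands, other receptors and signalling were the genes past the threshold, otherwise the 3 with the smallest p; Pvr, Cd274, Pdcd1lg2, Cd96, Rc3h1 and Rc3h2 were added after their values were seen. Alternatives were repeated normalization, centring, filters, cluster choice, eBayes settings, array weights, a principal component and leaving out each array.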

Additional observations from a re-analysis of the deposited data

How the results depend on the processing

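Of 160 recomputed differences of single receptor genes (10 genes, 16 alternatives), 149 kept their direction and their side of the adjusted threshold, 9 turned and 2, both of Tigit, passed. Ctla4 turned to -0.088 with arrays centred over the genes tested and to -0.18 with quantile normalization repeated over them (both alternatives were chosen after seeing the data), and lay between -0.093 (without WT A) and 0.23 with 1 array left out, -0.0059 without Keap1_KO D. Cd28 turned to -0.14 with the first principal component as covariate and to -0.0012 with quantile normalization over the genes tested, Cd200 to -0.015 with that component, and Icos to 0.021 with arrays centred on their medians and, with 1 array left out, lay between -0.20 and 0.040. The cause was not tested. Ctla4 minus Cd28 lay between -0.37 and 0.0092 with 1 array left out. The count of genes called was 0 with the settings of the report, 1 with trend and robust eBayes, 1880 with array weights, and 0 to 575 with 1 array left out, 575 without Keap1_KO B. The count of receptor genes called was 1 with array weights and 0 to 1 with 1 array left out. At an unadjusted p under 0.05 limma found 1733 genes. The receptor genes without overlap numbered 5 with arrays centred over the genes tested (Btla, Cd226 and Icos lower, Havcr2 and Tigit higher, against 16.3% of all genes in either direction) and 3 to 6 with 1 array left out, where 17.3% to 49.6% of all genes did not overlap, 49.6% beside the count of 6. The median of the 10 differences ranged from 0.029 to 0.45 over 15 alternatives. No paired analysis was possible because the groups share only the replicate letter D. With 3 arrays a group, the limma interval for Pdcd1 runs from 0.73 to 15.2 times the WT value.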
